A study of Mus musculus with 24 samples.

Results

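The genes described here are the nuclear genes for subunits of mitochondrial complex I in the hypothalamus of mice overfed by stomach infusion. They were chosen by name: every gene whose symbol is Nduf followed by a, b, c, s or v, a number and at most a short suffix. The rule found 40 of the 55471 genes counted, and 38 of these 40 were among the 18992 genes that passed the expression filter. The copies Ndufa11b and Ndufb4c did not pass. The pattern misses the subunit genes Ndufab1 and Ndufb1, the latter listed as Ndufb1-ps, and takes in Ndufa4 and Ndufa4l2, a complex IV subunit and its paralog.

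RNA was sequenced from the hypothalamus of 24 male C57BL6/J mice, 18 weeks old and fed chow, 1 library per mouse and 6 mice per group. ExpOF (experimental overfeeding) mice received a liquid diet with added sucrose through a gastric catheter, at a rate raised stepwise to 150% of baseline energy by day 9, and Control mice received sterile water at equal rates. ExpOF d14 and Control d14 mice were killed on day 14, at the end of the overfeeding, and ExpOF d14+3 and Control d14+3 mice 3 days later, after all had been on water infusion. The study left out 1 Control d14 mouse for poor RNA quality. That library is Control d14 replicate 4, identified by matching the deposited counts to mean expression values in the study's supplement, and the comparisons below use the other 23 libraries.

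Complex I (NADH:ubiquinone oxidoreductase) is the entry point of electrons from NADH into the respiratory chain. Its peripheral arm, which reaches into the mitochondrial matrix, carries the flavin and iron-sulphur clusters that pass electrons to ubiquinone, and its membrane arm pumps protons. The core subunits of the peripheral arm come from nuclear genes and those of the membrane arm from the mitochondrial genome, while the accessory subunits that surround both arms are all nuclear. Neurons depend on this chain for most of their ATP, and loss of single subunits is known from mitochondrial disease of the brain.

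The 40 genes lie on 15 chromosomes, with Ndufa1 and Ndufb11 on the X chromosome. In mm10, Ndufv2 lies at chr17:66078638-66101559, Ndufs1 at chr1:63143596-63176833, Ndufs6 at chr13:73319838-73328455 and Ndufs5 at chr4:123712710-123718202, all on the minus strand, and Ndufa3 at chr7:3617373-3620327 on the plus strand. Whether strand was used in counting is not given in the sources used here, and 13 of the genes overlap a gene on the opposite strand while 7 overlap one on the same strand. Reads were 51 bases long, so each run of 51 bases in the members' transcripts was looked up in the transcripts of all other genes. In 25 of the 40 genes at least 1 such run was shared. Among the 38 genes tested, 10 shared over 10% of their runs, led by Ndufb6 (31.4%, with Smim27), Ndufa13 (28.3%, mainly with Tssk6) and Ndufs6b (24.5%, all with Ndufs6). Their counts are less certain than those of Ndufv1, Ndufv2, Ndufs8, Ndufa1 and Ndufa3, which shared none.

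The promoters of 4 members that were among the 5 of smallest p on one of the days are shown as the 250 bases before the RefSeq start (GRCm38.p6), read in the direction of the gene. Ndufs5 and Ndufs6 hold a match to a searched motif, and Ndufv2 and Ndufa3 hold none in this stretch. Capitals mark the matches: in Ndufs5 the NRF1 motif 98 bases and the ESRRA motif 228 bases before the start, and in Ndufs6 the NRF1 motif 16 bases before the start. The last bases of the Ndufs5 stretch lie inside the gene as the count table places it.
Ndufs5, chr4:123718187-123718436, minus strand: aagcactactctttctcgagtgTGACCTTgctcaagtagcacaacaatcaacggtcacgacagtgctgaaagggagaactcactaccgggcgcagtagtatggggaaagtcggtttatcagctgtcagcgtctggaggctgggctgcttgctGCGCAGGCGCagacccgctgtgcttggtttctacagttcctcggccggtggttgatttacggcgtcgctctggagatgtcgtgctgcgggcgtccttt
Ndufs6, chr13:73328483-73328732, minus strand: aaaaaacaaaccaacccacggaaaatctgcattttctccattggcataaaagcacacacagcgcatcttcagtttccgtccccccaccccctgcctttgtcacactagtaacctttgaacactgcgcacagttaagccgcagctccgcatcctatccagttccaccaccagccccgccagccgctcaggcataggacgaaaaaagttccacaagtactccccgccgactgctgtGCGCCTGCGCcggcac
Ndufv2, chr17:66101560-66101809, minus strand: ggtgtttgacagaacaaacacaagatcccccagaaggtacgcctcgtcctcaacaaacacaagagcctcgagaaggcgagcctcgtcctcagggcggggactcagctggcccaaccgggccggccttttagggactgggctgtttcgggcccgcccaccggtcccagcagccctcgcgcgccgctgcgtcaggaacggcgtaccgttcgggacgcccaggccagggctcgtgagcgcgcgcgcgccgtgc
Ndufa3, chr7:3617123-3617372, plus strand: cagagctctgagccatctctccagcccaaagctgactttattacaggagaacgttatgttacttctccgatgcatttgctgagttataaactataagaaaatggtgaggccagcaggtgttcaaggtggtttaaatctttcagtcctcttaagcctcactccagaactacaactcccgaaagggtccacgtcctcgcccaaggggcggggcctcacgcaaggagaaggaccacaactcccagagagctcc

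Of the 40 members, 32 had a RefSeq promoter window (300 bases, 34 windows in all), and exact motif letters were searched on both strands. The NRF1 motif, bound by nuclear respiratory factor 1, an activator of nuclear respiratory genes, was in 23.5% of the members' windows and in 4.6% of all 32851 windows. The genes with it were Ndufa5, Ndufa6, Ndufa8, Ndufa11, Ndufb4, Ndufs5 and Ndufs6. The YY1 motif (AAGATGGC) was in 20.6% against 2.75%, and none of its 7 matches lay wholly before the start. CCGGAAG, for GABPA and other ETS factors, was in 11.8% against 8.86%, AAGGTCA, for ESRRA, in 8.82% against 4.72%, and TGACGTCA, for CREB, in 8.82% against 1.79%. The median GC content was 59.0% in the members' windows and 52.7% in all. These are matches of letters, and binding was not measured.

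Levels are given as CPM (counts scaled to library size with TMM factors) and, where genes are compared, per kilobase of exonic length in the count table. Among the 38 members tested the median level was 55.2 CPM per kb, against 3.62 over all genes tested. Ndufa4 stood highest at 118 ± 22.3 CPM per kb (SD over 23 libraries), followed by Ndufa8, a twin-cysteine accessory subunit, at 115 ± 20.5 and Ndufa2, a thioredoxin-like subunit of the peripheral arm, at 104 ± 30.7. These 3 lie within each other's spread. The lowest were Ndufb4 (5.11 ± 0.757), the hypoxia-inducible paralog Ndufa4l2 (2.50 ± 0.535) and the copy Ndufs6b (0.959 ± 0.637), each further below the one before than its own spread. Of the copies that did not pass, Ndufa11b had a median of 2.5 counts per library and Ndufb4c of 5. Exonic length sums every annotated exon, so genes with long alternative exons, such as Ndufb7 at 4522 bases, read low on this scale.

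**Figure D1:**
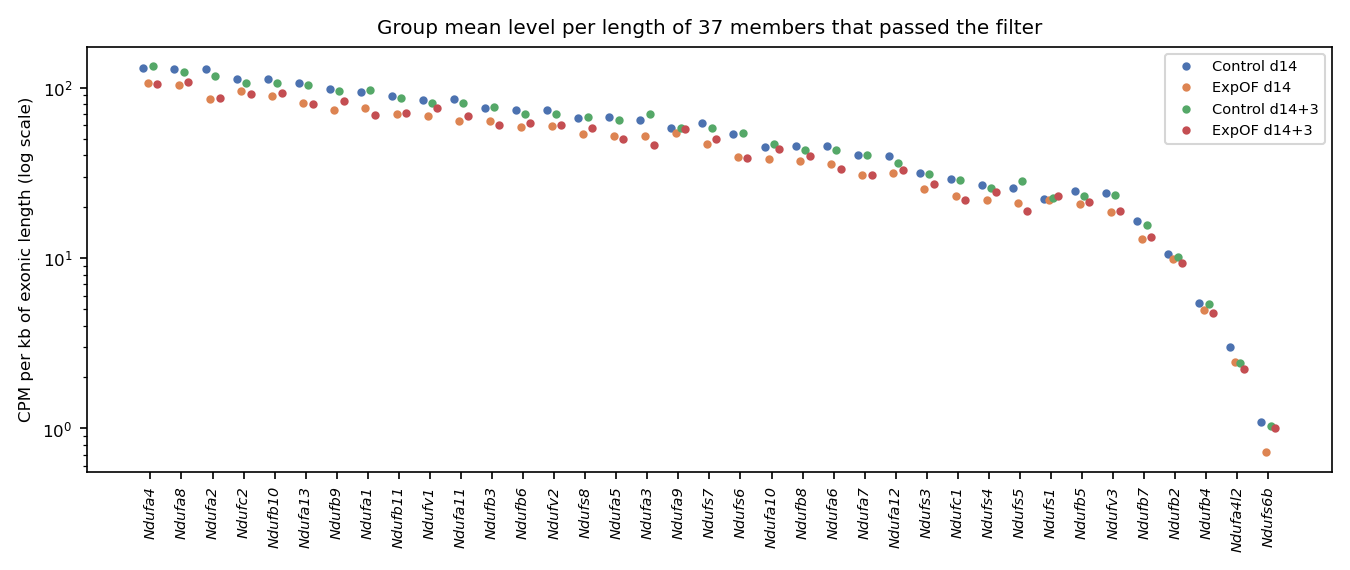
Mean level of 37 of the 38 tested members in CPM per kilobase of exonic length (log axis), in order of the mean over 23 libraries, with 1 point per group. Most members sit between 14.6 and 118 CPM per kb, and Ndufb2, Ndufb4, Ndufa4l2 and Ndufs6b trail below.

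On d14, at the end of overfeeding, the differences of the nuclear subunit genes between ExpOF and Control hypothalami were small and all to the same side, and none passed adjustment. All 38 members had a log2 fold change below 0, where 53.4% of all genes tested did, and their median was -0.32 against -0.021 over all genes. At an unadjusted p under 0.05 (edgeR quasi-likelihood test), 29 members were lower and 0 higher, where 13.6% of all genes were lower. After Benjamini-Hochberg adjustment no member passed 0.05 (smallest adjusted p = 0.135; 0.00527% of all genes passed), nor did any with DESeq2, which called 166 genes (0.395% of all genes lower).

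The core subunits that carry electrons followed this with an exception. Ndufv2, which holds an iron-sulphur cluster of the NADH module, had 123, 185, 144, 171 and 174 CPM in Control d14 and 119 to 135 CPM in ExpOF d14 (median 127). In 4 of the 5 controls it was above every ExpOF mouse, and it had a log2 fold change of -0.33 ± 0.096 (SE; edgeR adjusted p = 0.135; two-sided exact permutation p = 0.0195), the smallest unadjusted p among the members. Ndufv1, the subunit that binds NADH and flavin, had 160, 268, 199, 254 and 227 CPM in controls against 170 to 195 (median 175), a difference of -0.31 ± 0.12. Ndufs1, the largest subunit, did not share it: controls had 170, 190, 177, 179 and 187 CPM, ExpOF mice 169 to 196 (median 176), and the log2 fold change was -0.021 ± 0.049. The groups overlap almost wholly for Ndufs1.

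In the quinone module, where electrons reach ubiquinone, 3 of the 4 core genes were lower at an unadjusted p under 0.05 (median of the module -0.31). The share over all genes was 13.6%. Ndufs7, which carries the last iron-sulphur cluster, had 72.8, 133, 86.4, 114 and 124 CPM in controls and 73.7 to 89.7 (median 78.3) in ExpOF mice, a log2 fold change of -0.41 ± 0.17. Ndufs3 (-0.31 ± 0.13) and Ndufs8 (-0.30 ± 0.13) showed the same arrangement, with 3 of 5 controls above every ExpOF mouse.

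Among the accessory subunits of the peripheral arm 8 of 9 were lower at an unadjusted p under 0.05 (13.6% of all genes, median -0.36). Ndufa2 had 44.5, 89.2, 58.6, 92.0 and 84.3 CPM in controls and 46.6 to 52.2 (median 49.4) in ExpOF mice, the largest difference of the filter-passing subunits outside the gene copies, -0.58 ± 0.19 (exact permutation p = 0.0195). Control replicate 1 lay below all ExpOF mice and the other 4 above them. Ndufs6, a zinc-binding subunit, had 31.2, 56.0, 37.0, 56.4 and 60.3 CPM against 30.8 to 38.8 (median 35.7), -0.46 ± 0.16 (exact permutation p = 0.0671). Of its controls 3 were above every ExpOF mouse. Ndufa12, a subunit next to the quinone module, had 47.8, 67.0, 52.9, 69.4 and 72.6 CPM against 45.7 to 51.5 (median 49.8), -0.33 ± 0.10, and Ndufv3, of the NADH module, 59.6, 87.5, 64.1, 89.7 and 84.8 CPM against 54.9 to 63.1 (median 60.9), -0.37 ± 0.13. In both, 4 of 5 controls were above every ExpOF mouse. Ndufa9 was the exception of this group at -0.10 ± 0.077.

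In the membrane arm, 8 of the 9 accessory genes of its proximal part were lower at an unadjusted p under 0.05 (median -0.33). Of its distal part 7 of the 10 were (median -0.31), where 13.6% of all genes were. The remaining accessory genes of this arm were Ndufs5 (-0.30 ± 0.18), Ndufb7 (-0.35 ± 0.17), Ndufb4 (-0.13 ± 0.12) and Ndufb2 (-0.092 ± 0.079). Ndufa4 differed by -0.30 ± 0.12 and Ndufa4l2, with 2.42, 2.90, 3.10, 4.27 and 3.73 CPM against 2.34 to 3.05, by -0.32 ± 0.16. The copy Ndufs6b rests on 1 to 46 counts per library and differed by -0.61 ± 0.53.

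**Figure D2:**
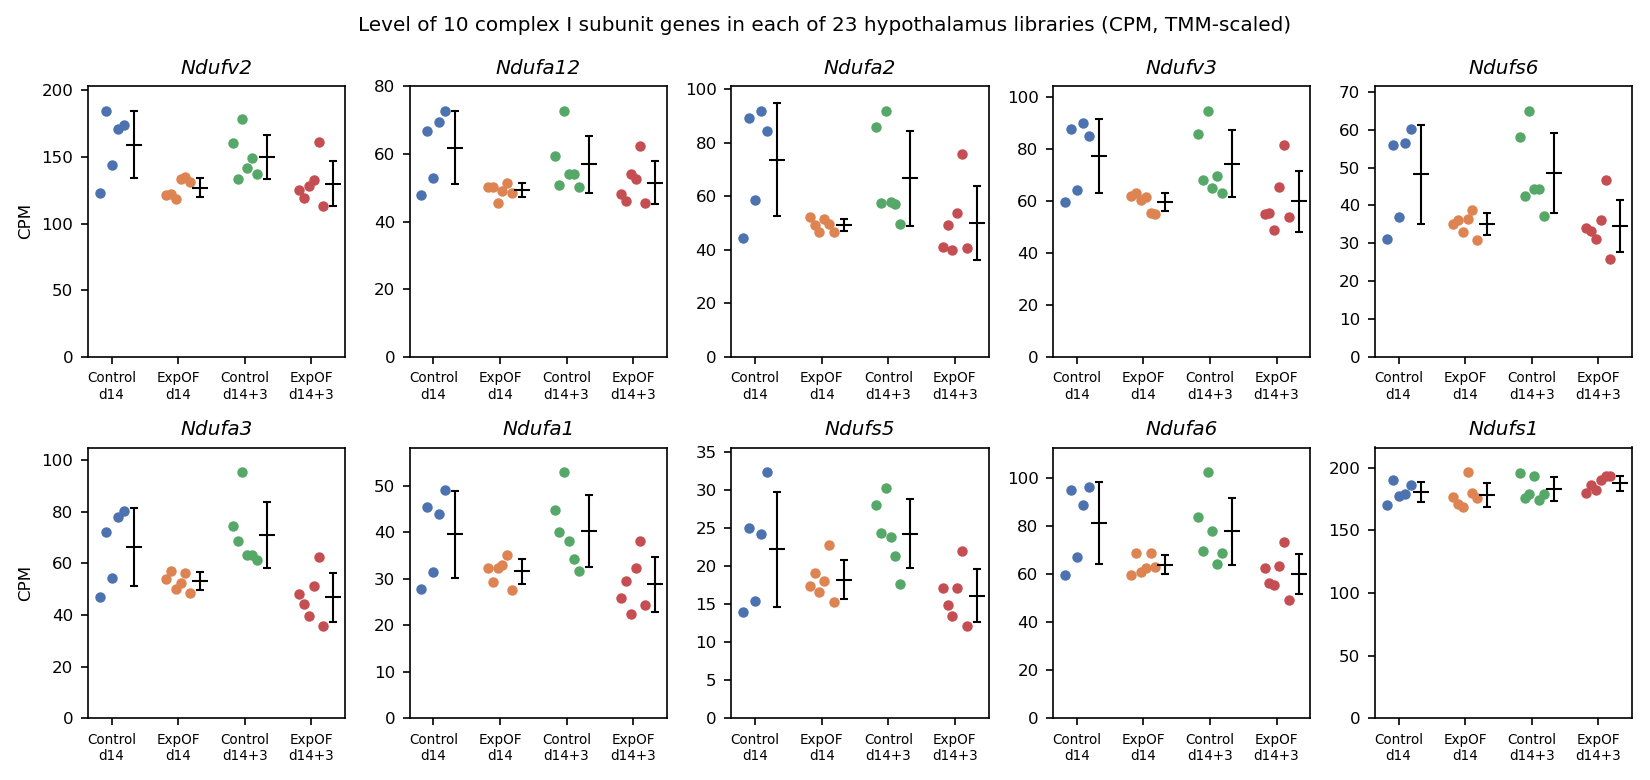
CPM (linear axes from 0) of 10 members in each of the 23 libraries, with the mean and SD of each group in black. In the Control d14 group the values split, with replicate 1 at or near the level of ExpOF mice and replicates 2, 5 and 6 above them, while Ndufs1 shows no such split.

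No member separated the d14 groups fully, where 2.5% of all genes did, but for 34 members at least 3 of the 5 controls were above every ExpOF mouse (23.6% of all genes). By the exact permutation test 7 members were lower at an unadjusted p under 0.05, where 11% of all genes were, the smallest p being 0.0152 for Ndufv3. The mean log2 CPM over the 38 members was 5.66 to 5.81 in the 6 ExpOF d14 libraries and 5.60, 6.26, 5.81, 6.22 and 6.23 in Control d14 replicates 1, 2, 3, 5 and 6. The difference therefore rests on 3 controls, with the other two at the ExpOF level.

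Leaving out Control d14 replicate 1 changed the call: 29 members then passed an adjusted p of 0.05, all lower (edgeR; 9.93% of all genes were called lower; median -0.41). Leaving out Control d14 replicate 2, 5 or 6 reduced the members lower at an unadjusted p under 0.05 from 29 to 13 each time (7.85%, 8.38% and 9.77% of all genes). By cohort the median was -0.39 in the mice killed in July, 3 per group (23 members lower at an unadjusted p under 0.05, 9.32% of all genes). It was -0.22 in those killed in September (0 members, 2.72% of all genes), with 3 ExpOF mice and 2 controls, replicates 1 and 5. Below 0 in both cohorts were 36 members. The share of all genes below 0 in both was not counted, and 53.4% were below 0 with the cohorts together. The cohorts were not compared by a test. Choroid plexus markers (Ttr, Kl, Folr1, Kcnj13 and Clic6) summed to 3030 CPM in Control d14 replicate 5 and to 1291 CPM in ExpOF d14+3 replicate 4, against 33.3 to 60.3 in the other 21 libraries, and their part in the result was not tested. Without Control d14 replicate 5 the median was -0.28. Anterior pituitary markers (Gh, Prl, Tshb and Cga) summed to 105 CPM in Control d14 replicate 1 and 40.6 in replicate 2. In the other 21 libraries they summed to 1.55 to 20.2 CPM, and their part was not tested. Markers of neurons summed to 3858 to 4089 CPM in Control d14 and 4135 to 4547 in ExpOF d14. These sums do not overlap, where 2.5% of all single genes did not. Of the 8 markers, 3 were higher and 0 lower at an unadjusted p under 0.05 (median 0.071). Of all genes 13.1% were higher and 13.6% lower. The part of the neuronal markers was not tested either. The 10 hypothalamic peptide and factor genes were Pomc, Npy, Agrp, Avp, Oxt, Hcrt, Pmch, Trh, Nr5a1 and Sim1. They were detected and summed to 719 to 1301 CPM in Control d14 and 665 to 918 in ExpOF d14. The study itself reports Npy and Agrp as lower on d14, and Npy also on d14+3. Of the 10, 5 were lower and 1 higher at an unadjusted p under 0.05 (median -0.42), where 13.6% and 13.1% of all genes were. Markers of ependyma and tanycytes summed to 42.1 to 54.6 CPM in Control d14 and 35.2 to 42.8 in ExpOF d14, and 2 of 4 were lower (median -0.25). Of 5 oligodendrocyte markers 2 were lower (median -0.16). Thalamus markers (Tcf7l2, Prkcd, Rora and Calb2) summed to 377, 544, 436, 735 and 738 CPM in Control d14 replicates 1, 2, 3, 5 and 6. They summed to 399 to 585 CPM in ExpOF d14, and 1 of 4 was lower (median -0.24). The part of these lists in the result was not tested. In bulk tissue, fewer cells of a kind and less RNA per cell cannot be told apart.

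**Figure D3:**
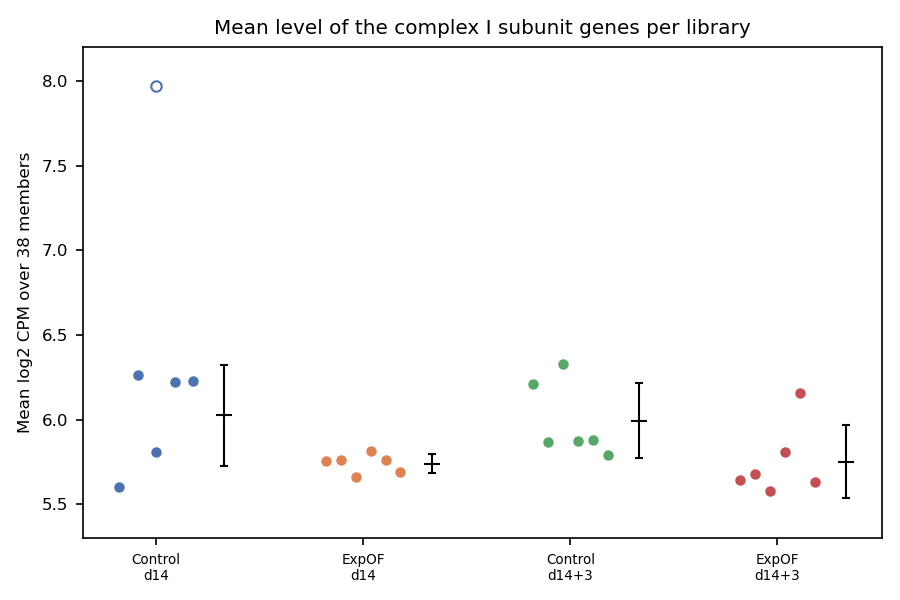
Mean log2 CPM over the 38 tested members in each library, with the mean and SD of each group in black. The open circle is Control d14 replicate 4, which is not in the mean. The Control d14 libraries fall at 5.60, 5.81 and 6.22 to 6.26, and the 6 ExpOF d14 libraries between 5.66 and 5.81.

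On d14+3, when overfeeding had ended 3 days earlier, the differences of the subunit genes were again small, almost all to the same side and none past adjustment with edgeR, and the largest were in short accessory subunits. Of the 38 members 37 had a log2 fold change below 0 (47.9% of all genes), the median was -0.21 against 0.0070 over all genes, and 16 were lower at an unadjusted p under 0.05, where 4.2% of all genes were. None was higher (2.91% of all genes). No gene passed an adjusted p of 0.05 with edgeR (0% of all genes; smallest among members 0.227), while DESeq2 called 55 genes, 1 of them a member, Ndufa3 (adjusted p = 0.0146; 0.253% of all genes were called lower by DESeq2).

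Ndufa3, a single-pass subunit of the membrane arm beside the junction with the peripheral arm, ranged from 61.3 to 95.4 CPM among Control d14+3 mice, with a median of 66.0, and from 35.8 to 62.4 among ExpOF d14+3 mice, with a median of 46.2. In 5 of 6 ExpOF mice it was below every control, and the log2 fold change was -0.60 ± 0.13 (edgeR adjusted p = 0.227; exact permutation p = 0.00433, the smallest of the members). Ndufs5, a subunit on the intermembrane space side, ranged from 17.7 to 30.3 CPM (median 24.1) and from 12.2 to 22.0 (median 16.0), -0.59 ± 0.17, with the same 5 of 6 below all controls. Ndufa1, another single-pass subunit, ranged from 31.6 to 53.0 CPM (median 39.2) and from 22.4 to 38.2 (median 27.8), -0.49 ± 0.14, with 4 of 6 below all controls.

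In the peripheral arm, Ndufs6 ranged from 37.1 to 65.1 CPM in controls (median 44.3) and from 26.0 to 46.7 in ExpOF mice (median 33.6), -0.49 ± 0.16. Ndufa6, which anchors the acyl carrier protein subunit, ranged from 64.4 to 103 CPM (median 73.9) and from 49.4 to 73.2 (median 59.5), -0.38 ± 0.12. For both, 5 of 6 ExpOF mice were below every control. In all, 8 members had 5 of 6 ExpOF mice below every control (1.83% of all genes), and none separated the groups fully (0.421% of all genes did). By the exact permutation test 11 members were lower at an unadjusted p under 0.05 (3.7% of all genes).

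On this day 4.2% of all genes were lower at an unadjusted p under 0.05. The groups of subunits differed in how many were lower by this measure, a split that was not tested. It was 6 of 9 in the peripheral-arm accessory genes (median -0.36), 6 of 9 in the proximal membrane arm (median -0.38), 2 of 10 in the distal membrane arm (median -0.19), 1 of 3 in the NADH-side core (Ndufv2, -0.21 ± 0.092) and 0 of 4 in the quinone-module core (median -0.20). Ndufs1 was the one member above 0, with 174 to 196 CPM in controls (median 179) and 180 to 194 in ExpOF mice (median 188), 0.035 ± 0.047. Ndufv1 (-0.093 ± 0.11) and Ndufa9 (-0.015 ± 0.074) also lay near 0. Ndufa4 differed by -0.35 ± 0.12 and Ndufa4l2 by -0.11 ± 0.16.

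**Figure D4:**
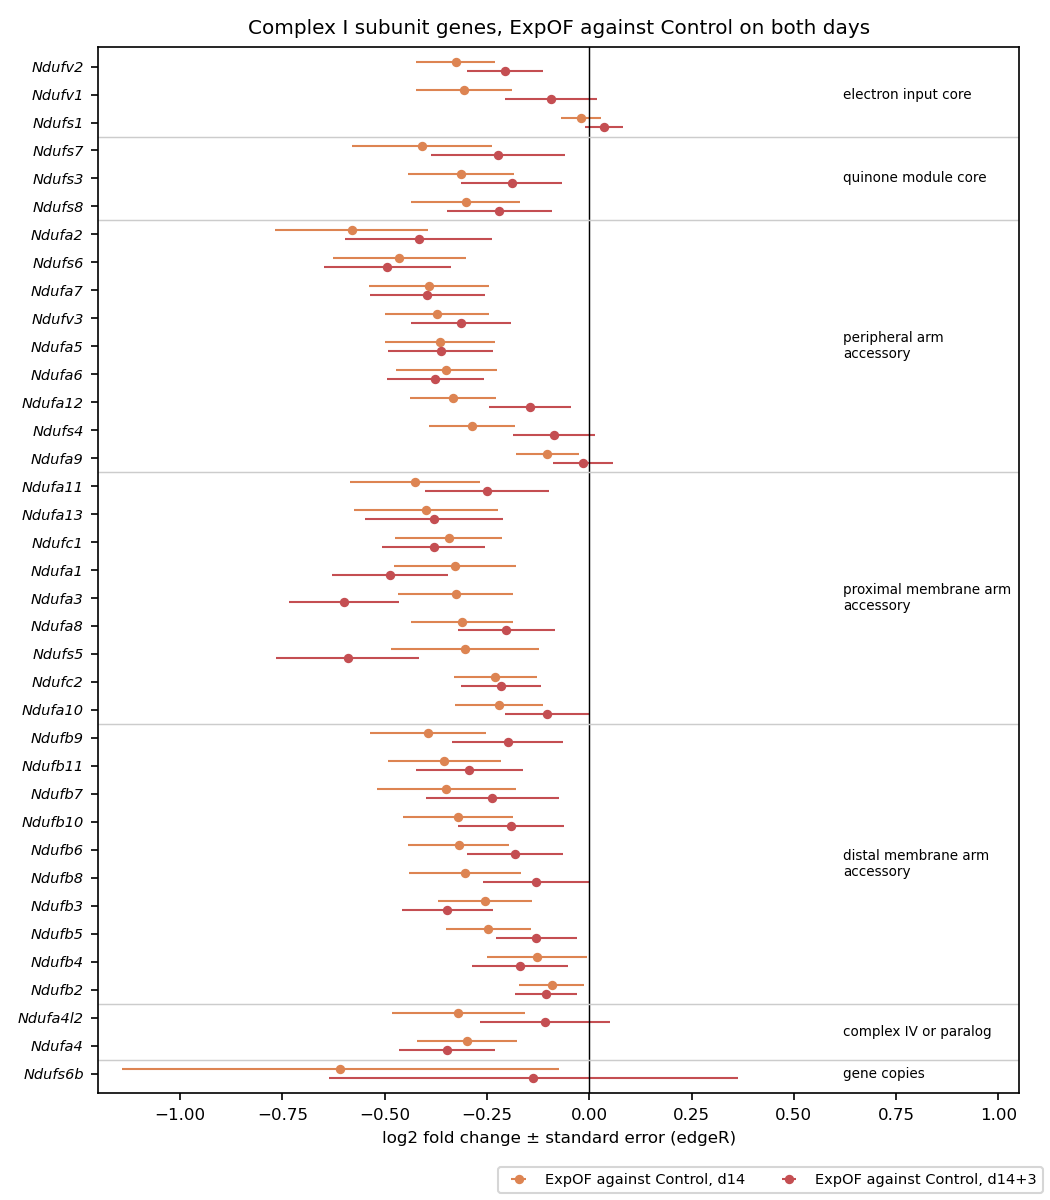
Log2 fold change with standard error of 37 of the 38 tested members, ExpOF against Control on d14 and on d14+3, grouped by place in the complex. All 37 d14 points and 36 of the 37 d14+3 points lie left of 0, with Ndufs1 nearest 0 on d14 and above it on d14+3.

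The mean over the members was 6.21 and 6.33 in Control d14+3 replicates 1 and 3 and 5.79 to 5.88 in the other 4 controls, and it was 6.16 in ExpOF d14+3 replicate 5 and 5.58 to 5.81 in the other 5 ExpOF mice. Without ExpOF d14+3 replicate 5, the members lower at an unadjusted p under 0.05 numbered 27 (7.39% of all genes; median -0.31), and without Control d14+3 replicate 3 they numbered 10 (2.61%; median -0.14). The median was -0.36 in the July mice (19 members, 4.87% of all genes) and -0.088 in the September mice (2 members, 1.43%), and 34 members were below 0 in both. The share of all genes below 0 in both was not counted, and 47.9% were below 0 with the cohorts together. Each cohort held 3 mice per group on this day. On this day 3 of the 10 hypothalamic genes were lower at an unadjusted p under 0.05 (median -0.11), where 4.2% of all genes were. They summed to 571 to 867 CPM in controls and 505 to 726 in ExpOF mice. Of the 4 ependymal and tanycyte markers 2 were lower (median -0.25), with 35.4 to 55.1 CPM summed in controls and 32.0 to 39.9 in ExpOF mice. Thalamus markers summed to 982 and 1004 CPM in Control d14+3 replicates 1 and 3 and 599 to 786 in the other 4 controls. In ExpOF d14+3 they summed to 906 and 943 in replicates 5 and 6 and 547 to 748 in the others. The part of these lists was not tested.

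The difference between the effects on the 2 days was tested directly. No member passed an unadjusted p of 0.05 for the interaction, where 4.42% of all genes did, 27 members had the smaller decrease or none on d14+3 and 11 the larger (47.4% of all genes were below 0), and the median difference was 0.098. Ndufa3 had the smallest p and differed between days by -0.27 ± 0.19 (unadjusted p = 0.172; edgeR adjusted p = 0.903). Lower at an unadjusted p under 0.05 on both days were 15 members, on d14 alone 14 and on d14+3 alone 1. Of all genes 13.6% were lower on d14 and 4.2% on d14+3, and their share on both days was not counted. The members' counts come from different mice and do not show a difference between the days.

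Coding length is that of the longest annotated coding sequence of each gene, and which form was expressed was not tested. Ndufs1, Ndufv1 and Ndufa9, whose d14+3 values lay near 0, are among the longer members. Others went the other way: Ndufv3, longer than Ndufv1 and Ndufa9 at 1404 bases, had -0.31 ± 0.12 on d14+3. The short Ndufb2 (315 bases) and Ndufa4l2 (261 bases) had -0.11 ± 0.076 and -0.11 ± 0.16. Against the length of the coding sequence the members' log2 fold change had a Spearman correlation of 0.22 on d14 and 0.62 on d14+3 (37 genes from the same libraries), and over 15370 coding genes it was 0.40 and 0.37. On d14+3 the 20 members with a coding length up to 450 bases had a median of -0.36, against -0.12 for all genes of that length. The 11 members of over 450 to 900 bases had -0.20 against -0.055, and the 6 longer ones -0.069 against 0.022. On d14 the same medians were -0.33 against -0.22, -0.31 against -0.13 and -0.19 against 0.014. When each library's trend with exonic length was removed, the median became -0.20 on d14, with 9 members lower at an unadjusted p under 0.05 (9.7% of all genes), and -0.17 on d14+3, with 15 (4.02%). Ndufv2, Ndufa12, Ndufa2 and Ndufv3 were among the 9 on d14, and Ndufs6 (-0.30) was not.

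**Figure D5:**
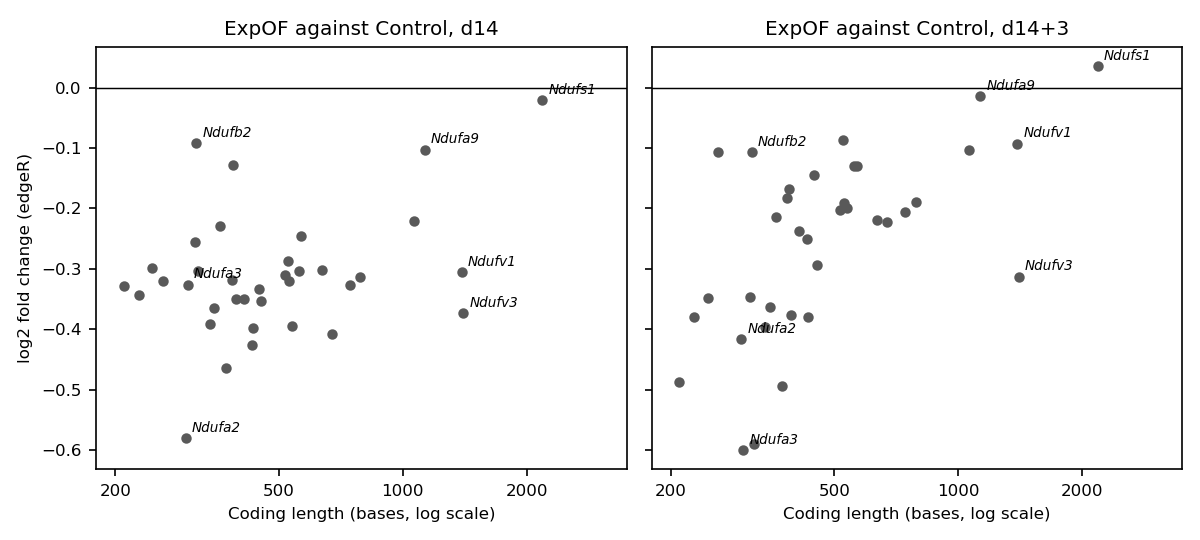
Log2 fold change of 36 members (Ndufs6b, not drawn, has no coding sequence in the annotation) against coding length in bases on a log axis, for both days. Ndufs1, the longest at 2181 bases, sits nearest 0 on d14 and above it on d14+3, and the members under 450 bases hold the lowest values.

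Other genes of the complex were counted from lists written down with the members. Both subunit genes outside the name pattern were below 0 on both days. Ndufb1-ps had a log2 fold change of -0.29 ± 0.17 on d14 and -0.63 ± 0.17 on d14+3 (unadjusted p = 0.000982, edgeR adjusted p = 0.301), and Ndufab1, the acyl carrier protein, -0.12 ± 0.072 and -0.21 ± 0.069. The mitochondrial genome's complex I genes lay on the other side of 0 on d14. Of the 6 tested, all were above 0 and 5 were higher at an unadjusted p under 0.05 (13.1% of all genes were higher), with a median of 0.32. mt-Nd2 had 1865 to 2910 CPM in Control d14 (median 2294) and, among ExpOF d14 mice, 2818 to 3603 (median 3185), 0.46 ± 0.14 (edgeR adjusted p = 0.135). The ranges overlap in 1 control. On d14+3 the median was 0.076, and mt-Nd6, the one complex I gene on the other mitochondrial strand, was lower (-0.22 ± 0.096, unadjusted p = 0.0284).

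Of the 16 assembly factors tested, which build the complex without staying in it, 13 were below 0 on d14 (median -0.11), where 53.4% of all genes were. Ndufaf8 (-0.60 ± 0.22), Ndufaf3 (-0.33 ± 0.14) and Nubpl (-0.21 ± 0.098) were lower and Ndufaf4 (0.18 ± 0.085) higher at an unadjusted p under 0.05. Of all genes 13.6% were lower and 13.1% higher. On d14+3 none of the 16 was either. In complex II, which feeds the same ubiquinone pool, all 4 genes were below 0 on both days (53.4% of all genes on d14 and 47.9% on d14+3). Under an unadjusted p of 0.05 were Sdhb on d14 (-0.27 ± 0.11, with 13.6% of all genes lower) and Sdhc on d14+3 (-0.22 ± 0.085, with 4.2% lower). Of 11 transcriptional regulators of respiratory genes, 6 were higher on d14 at an unadjusted p under 0.05, where 13.1% of all genes were. These 6 were Creb1 (0.38 ± 0.13), Ppargc1b (0.37 ± 0.17), Gabpa (0.31 ± 0.12), Ppargc1a (0.22 ± 0.088), Pprc1 (0.19 ± 0.076) and Yy1 (0.18 ± 0.058). Tfam, the mitochondrial transcription factor, was lower (-0.13 ± 0.060), and Nrf1 was at -0.080 ± 0.051. On d14+3 none of the 11 had an unadjusted p under 0.05. Without Control d14 replicate 1, 3 of the mitochondrial genes and 5 of the regulators passed an edgeR adjusted p of 0.05 on d14, all higher (12% of all genes were called higher). In that fit 2 assembly factors and 2 complex II genes passed, all lower (9.93% of all genes were called lower).

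The RNA integrity number (RIN) of the labels averaged 9.20 ± 0.860 (SD, n = 5) in Control d14 and 9.75 ± 0.138 (n = 6) in ExpOF d14, and 8.62 ± 1.09 and 9.43 ± 0.450 (n = 6 each) on d14+3, so it was higher in ExpOF mice on both days. Within groups, the coefficient of RIN was above 0 for 37 of 38 members (49.3% of all genes), with a median of 0.079 log2 units per RIN unit (-0.0013 over all genes), and 1 had an unadjusted p under 0.05 (4.08% of all genes were higher): Ndufs7, at 0.17 ± 0.082 (edgeR adjusted p = 0.715). Next came Ndufb11 (0.13 ± 0.067), Ndufb2 (0.072 ± 0.040), Ndufa1 (0.13 ± 0.072) and Ndufs3 (0.11 ± 0.064). The count depended on the fit. With cohort and extraction round as covariates 10 members had a coefficient above 0 at an unadjusted p under 0.05 (7.95% of all genes; median 0.12), and with the replicate number as a block 32 had (15.7%; median 0.24). In the July mice 24 had (12.2%; median 0.19), and in the September mice 0 had (1.69%; median -0.11). None passed an adjusted p of 0.05 in any of these fits. With RIN in the fit the members' median was -0.37 on d14 and -0.27 on d14+3, against -0.32 and -0.21 without it. That fit holds the RIN coefficient equal in all mice, while its median was above 0 in July and below 0 in September. The part of RIN in the result was not tested.

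Across the 23 libraries, with group means removed, most members varied together. The log2 CPM of 29 of the 38 had a Pearson correlation above 0.9 with the mean of the other members, which 3.2% of other genes had with the members' mean, and the lowest were Ndufs6b (0.26), Ndufs1 (0.50), Ndufb2 (0.51) and Ndufa4l2 (0.65). The genes outside the family most like the members' mean over these libraries were Cox6b1 (r = 0.99), a complex IV subunit, Elob (0.99), elongin B, and Timm13 (0.98), a mitochondrial import chaperone, followed by Arhgdig, Banf1, Drap1, Selenow, Map1lc3a, Flot1 and Atox1 (0.98 each). All these points share the libraries, their depth and their scaling.

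Control d14 replicate 4 stands apart in this family. It had 10922271 counts, of which 1.15% fell in the 40 genes, against 0.262% to 0.414% in the other libraries. In it 37 of the 38 tested members were above all other libraries (33.5% of all genes were), by a median of 1.84 log2 units over the median of the other Control d14 mice. Ndufa2 stood at 675 CPM there, against at most 92.0 in the controls used, and Ndufs6 at 331 against 60.3. Ndufs1 again differed, at 128 CPM, below all others. The labelled RIN of this library is 9.8. Its choroid plexus markers summed to 4553 CPM, its blood markers to 666 (at most 279 in the other libraries), its hypothalamic genes to 2632 (505 to 1301), and its neuronal markers to 2766 (3858 to 4684). The part of these in the members' values was not tested. With this library in the fit the d14 median was -0.85 and 37 members were lower at an unadjusted p under 0.05 (20.9% of all genes), none past an adjusted p of 0.05, and on d14+3 the count went from 16 to 1 (1.56% of all genes). By the exact permutation test, 17 members then were lower at an unadjusted p under 0.05 on d14 (14% of all genes).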

How the data were processed

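The authors aligned reads of poly-A selected, stranded libraries to mm10 with STAR 2.7.3a and counted them on GENCODE vM22 genes with featureCounts 1.6.4. The deposited values are raw counts per gene, with positions and exonic lengths. Counts per library ranged from 8928182 to 34848437, and members below about 10 counts per library, such as Ndufs6b, are limited by counting error. Symbols, transcripts and coding lengths came from GENCODE vM21 and promoters from RefSeq. Counts were tested in R 4.3.3 with edgeR 4.0.16 (TMM, filterByExpr with a minimum count of 10 and total of 15, robust quasi-likelihood fit of 4 groups over 23 libraries) and Benjamini-Hochberg adjustment over 18992 genes. Standard errors of edgeR fold changes were derived from the test, as the absolute log2 fold change divided by the square root of its F statistic. Each gene had a single estimate of spread for the 4 groups. The SD of the members' mean log2 CPM was 0.300 in Control d14 and 0.0558 in ExpOF d14. The standard errors do not show this inequality. Log2 CPM used a prior count of 2. Permutation tests were exact and two-sided. Alternatives were DESeq2 1.42.0, its size factors, other filters, other sets of libraries, covariates, a replicate block and a length offset (spline with 5 degrees of freedom). The fit was tested on simulated data.

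The members and gene lists were chosen with earlier results of these data known. Named with values were the nuclear core subunits, the 5 members of smallest p on each day and for RIN, members opposite in direction, the 3 highest and 3 lowest per length, Ndufa4, Ndufa4l2 and gene copies. A core subunit is not reported here, though it stays in the fits, counts and medians. Others were named after their values were seen. Each mouse gave 1 library, and no pair of libraries of a group was a duplicate (chi-square per degree of freedom at least 2.95 over 60 pairs).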

Additional observations from a re-analysis of the deposited data

Results flagged for a closer look

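The following 2 results stood apart. In Control d14 replicate 4, the library not used in the comparisons, 37 members were above every other library. Ndufb2 in ExpOF d14+3 replicate 4 was the highest of its group at 57.3 CPM against a median of 52.2 in the others, a gap of 0.735 of the group's range. The gap is past Dixon's 95% critical value for 6 samples. It was 1 of 88 groups examined, and chance gives about 1 in 20. ExpOF d14+3 replicate 4 is also the library with 1291 CPM of choroid plexus markers, and the part of this in Ndufb2 was not tested.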

How the results depend on the processing

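Genes called on d14 numbered 1 and became 166 with DESeq2 (91 higher), 2 with only the 2 groups compared, and 0 in the July or the September cohort alone. On d14+3, 0 became 55 with DESeq2 (7 higher), 26 with RIN as a covariate (5 higher). Members called on d14+3 went from 0 to 1 with DESeq2. For RIN, 0 genes became 3 with DESeq2. Members lower at an unadjusted p under 0.05 on d14 went from 29 to 9 with the length trend removed and to 0 in September, which had 2 controls. On d14+3 they went from 16 to 1 with all 24 libraries and to 2 in September. The d14 median moved from -0.32 to -0.85 with all 24 libraries. Leaving out each library gave 1 to 4220 genes called (4220 without Control d14 replicate 1) and 0 to 29 members called on d14, 13 to 33 members lower at an unadjusted p on d14 and 10 to 27 on d14+3. No library left out gave a called gene on d14+3, for the interaction or for RIN. Directions that turned included Ndufs1 on d14 with all 24 libraries (0.062) and in September (0.045), Ndufs1 on d14+3 in September (-0.013) and with the length trend removed (-0.0084), Ndufb2 on d14 in September (0.011), Ndufa9 with the length trend removed on d14 (0.0045) and d14+3 (0.025) and in September on d14+3 (0.0072), Ndufs4 on d14+3 in September (0.0075), Ndufs6b on d14+3 in September (0.84), and with single libraries left out Ndufa4l2 (-0.20 to 0.027) and Ndufs6b (-0.74 to 0.11) on d14+3. The cause was not tested.

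Replicate numbers did not pair the samples: deviations of same-numbered mice correlated from -0.21 to 0.22. With the replicate block, 22 members on d14 and 16 on d14+3 were lower at an unadjusted p under 0.05 and none was called, and 5 genes were called for RIN in place of 0. The remaining alternatives kept the numbers of genes and members called, and of members lower at an unadjusted p under 0.05, within 1.5 times of those reported. The number of members associated with RIN at an unadjusted p under 0.05 was 1 and became 10 with cohort and extraction round as covariates, 24 in July, 0 in September and 32 with the block.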
